A study of Mus musculus with 18 samples.

Results

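The 28 genes described here encode proteins of the small subunit of the cytoplasmic ribosome. They are *Rpsa*, 26 of the *Rps* genes and *Fau*, and they were taken by symbol from the rows of the deposited count files, which list 55487 gene identifiers. All 28 were found and all 28 passed the filter on low counts. 

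RNA was sequenced from single forelimb buds of mouse embryos in 18 libraries, 3 in each of 6 groups. Mutants (Esco2fl/fl;Prrx1-CreTg/0) carried *Esco2* alleles flanked by loxP sites and a *Prrx1*-Cre transgene that drives Cre in the mesenchyme of the limb. Controls (Esco2fl/fl) had the same alleles without Cre, so an effect of Cre itself cannot be told apart from an effect of *Esco2* loss. Both genotypes were collected at 3 stages named by embryonic day, the earliest E9.5, the next E10.5 and the last E11.5. The enzyme made from *Esco2* acetylates cohesin, the ring that holds sister chromatids. In CPM (counts scaled to library size), *Esco2* itself ranged from 15.3 to 19.8 in mutants and from 24.99 to 28.1 in controls at E9.5. At E10.5 it ranged from 18.9 to 22.3 in mutants and from 28.05 to 33.6 in controls. At E11.5 the mutants, at 22.4 to 23.8, lay inside the control range of 20.5 to 30.9. The name of each library holds its own pair of numbers, whose meaning the labels do not give, so the p-values reflect the spread between these libraries alone, which may be technical.

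The small subunit binds the messenger RNA and reads its codons, while the large subunit joins the amino acids. Each ribosomal protein is needed in the same amount per subunit, and the genes are transcribed at high, matched levels in growing tissue. Their messenger RNAs begin with a run of pyrimidines, through which mTORC1 signalling controls their translation. When subunits are assembled in unequal proportions, unassembled ribosomal proteins can bind MDM2 and stabilise p53.

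Depth ran from 35034237 to 56230058 counted read pairs per library. One library stood apart before any comparison. In replicate 1 of the E9.5 controls the 28 members took 4.08% of all counts, against 1.69% to 2.55% in the other 17 libraries. The members' CPM there was a median of 2.31 times the mean of the other 2 controls of that stage, and 25 of the 28 members were more than 1.5 times higher. Large subunit genes and nuclear genes of oxidative phosphorylation were high in it as well, at 6.35% and 1.47% of counts. It also had the strongest gene length trend: Spearman's rho between gene length and a gene's deviation from the mean of its stage was -0.43, against -0.24 to 0.33 elsewhere. At E10.5 and E11.5 rho was -0.24 to -0.12 in the mutants and -0.01 to 0.23 in the controls, so the trend moved with genotype. Results are given with that library, as the design has it, and without it. Because it was set apart in part by the members' own values, calls of members gained without it are not independent support.

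**Figure D1:**
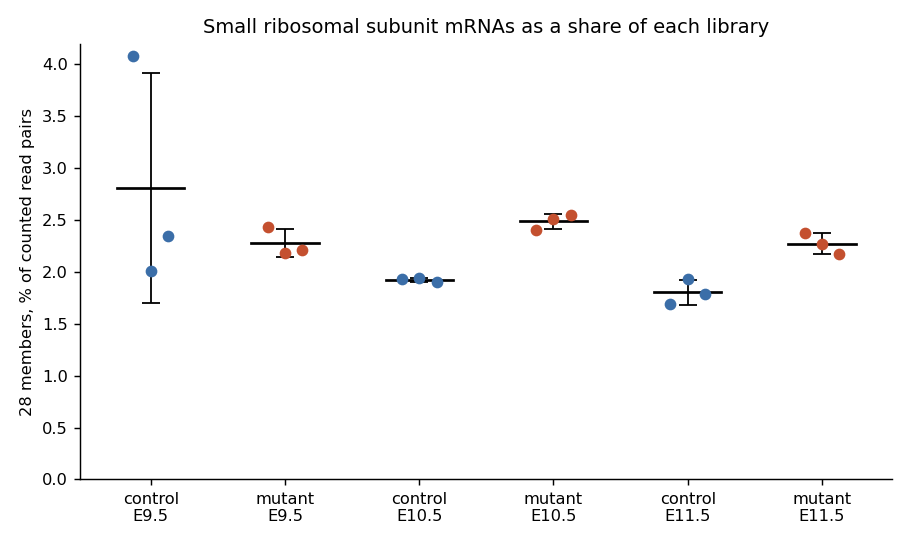
Share of all counted read pairs that fell on the 28 members (y axis, percent) in each of the 18 libraries (points), by group (x axis); lines are means and bars are SD of 3 libraries. Replicate 1 of the E9.5 controls stands at 4.08%, and the mutants at E10.5 and E11.5 lie above the controls of their stage.

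Markers of cell types differed between the genotypes too. Summed CPM of 8 surface ectoderm markers was 285 to 412 in controls and 576 to 854 in mutants at E10.5, and 284 to 491 against 596 to 760 at E11.5. Of those 8 markers, 7 rose at each of the latter stages, where 7.3% and 8.02% of all genes rose and 6.63% and 9.52% fell. The eighth, *Krt14*, a basal keratin, had log2 changes of -0.88 ± 0.36 (adjusted p = 0.12) and -0.88 ± 0.35 (adjusted p = 0.098). Of 7 macrophage markers, 4 rose at the earlier and 6 at the later of these, and their sum was 86.5 to 187 CPM in E11.5 mutants against 37.6 to 48.2 in controls. Of 10 erythroid markers, 6 rose at E10.5 but 0 did at E11.5, and globin genes held up to 1.96% of counts in an E10.5 mutant. Of 7 forelimb mesenchyme markers, 4 fell at E10.5 and 5 at E11.5. A positive log2 change was found for 1 of the 7 at each stage, and neither passed the threshold. It was 0.44 at E10.5, with mutants above controls and no overlap, and 0.11 at E11.5. Endothelial markers, 6 in all, had 2 past the threshold and higher in mutants at E10.5, and 0 lower. The later stage had 1 such marker and 0 lower, with 3 of the 6 changes positive and 3 negative. *Tbx5*, which specifies the forelimb, stood at 50.8 CPM or more in all 18 libraries, while the hindlimb genes *Tbx4* and *Pitx1* reached at most 11.98 and 11.3 CPM. In whole buds a change in the share of cells with much or little messenger RNA of ribosomal proteins cannot be told apart from a change within cells. The same holds for the markers themselves, whose shifts may lie in cell makeup or in expression within cells. The part that the marker shifts have in the results below was not tested.

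Levels per kilobase of coding sequence, averaged over the 17 libraries other than that control, ran from 507 to 2808 for 27 members. *Rps14*, a protein of the platform of the subunit, was highest at 2808 CPM per coding kilobase, followed by *Rps12* at 2512. *Rps6*, the protein phosphorylated by S6 kinase, was lowest of the 27 at 507. *Rps10* alone stood far below, at 40.8. Of the coding bases of *Rps10*, 80.1% (456 of 569 over its annotated isoforms) lie in exons of the readthrough gene *RPS10-NUDT3* on the same strand, and pairs that overlap both genes are left uncounted by default. The *Rps10* count, 17214 over all 18 libraries, is therefore an incomplete measure of its level. Other levels may be incomplete too. *Rps6* and *Rps12* are among the members with an annotated copy at 100% identity over 100% of the coding sequence. Pairs with several alignments are left uncounted by default, so the order of the levels may partly reflect such losses, which were not measured.

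Near-identical copies are the second feature that shapes the counts. At 95% identity over 90% of the coding sequence, 172 copies were found in the annotation for 27 of the members. For 7 members the copies held more than 5% as many counts as the member itself, and these were *Rps2*, *Rps3a1*, *Rps7*, *Rps10*, *Rps13*, *Rps15a* and *Rps18*. The sequences below show how little separates a member from its main copy. *Rps2*, which lines the entry of the messenger RNA channel, lies on chromosome 17 (mm10 chr17:24718116-24721929), and *Rps2-ps13* lies on chromosome X (chrX:52898588-52899469). They differ at 7 of 882 coding bases, and the longest stretch with no difference is 302 bases, beside a read length of 150. *Rps18* (chr17:33951999-33956001), at the head of the subunit, and *Gm10260* (chr13:97760072-97760632) differ at 4 of 459. *Rps3a1* (chr3:86137940-86142702) and *Rps3a3* (chr13:108670603-108671397) differ at 9 of 795. Each pair below is the stretch of 120 coding bases with most differences, read 5′ to 3′ from the reference transcripts, and capitals mark the bases that differ.
Rps2: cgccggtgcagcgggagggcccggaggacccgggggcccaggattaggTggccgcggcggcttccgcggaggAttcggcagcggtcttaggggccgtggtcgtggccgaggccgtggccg
Rps2-ps13: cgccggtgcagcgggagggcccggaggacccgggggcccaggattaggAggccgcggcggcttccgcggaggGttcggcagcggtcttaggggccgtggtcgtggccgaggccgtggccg
Rps18: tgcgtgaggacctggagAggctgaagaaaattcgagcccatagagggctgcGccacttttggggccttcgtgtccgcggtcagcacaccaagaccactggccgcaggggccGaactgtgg
Gm10260: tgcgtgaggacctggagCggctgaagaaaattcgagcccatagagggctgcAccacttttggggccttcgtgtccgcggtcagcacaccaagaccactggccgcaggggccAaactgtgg
Rps3a1: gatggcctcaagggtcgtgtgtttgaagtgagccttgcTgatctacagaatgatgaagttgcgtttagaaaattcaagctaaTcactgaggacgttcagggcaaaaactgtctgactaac
Rps3a3: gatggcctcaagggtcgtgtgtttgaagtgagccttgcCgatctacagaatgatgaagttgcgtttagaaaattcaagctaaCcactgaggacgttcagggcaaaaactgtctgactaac

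The copies were counted in some libraries and almost absent in others, and the split cut across genotype and stage. *Rps2-ps13* stood at 381 to 1252 CPM in 6 libraries, and in the other 12 it did not pass 0.9 CPM. The 6 were replicates 1 and 2 of the E9.5 controls, replicate 3 of the E10.5 controls, replicate 1 of the E11.5 controls, replicate 1 of the E9.5 mutants and replicate 3 of the E11.5 mutants. *Gm10260* was counted in the same 6, at 116 to 373 CPM, and reached at most 1.2 CPM elsewhere. In each group with 1 such library, *Rps2* and *Rps18* were lowest in that library. At E10.5 *Rps2* was 1694, 1833 and 1066 CPM in control replicates 1, 2 and 3, and with its copies added the same libraries had 1714, 1847 and 1580. The split followed the first number in the library names: the 6 libraries are all those numbered 39, 56, 65 or 79. Number 65 was shared by 1 control and 1 mutant of E9.5, 41 by 2 and 2 of E10.5 and 79 by 1 and 1 of E11.5. Within these shared numbers, with copies added, the median log2 difference of mutant minus control over the members was 0.26, 0.34 and 0.39, positive for 27, 28 and 28 of 28. These differences carry no test. *Rps3a3* followed another split. It stood at 1.9 to 3.5 CPM in 5 libraries, where *Rps3a1* was 755 to 1113, at 128 to 180 CPM in 9, where *Rps3a1* was 486 to 667, and at 270 to 353 CPM in 3, where *Rps3a1* was 197 to 219. In replicate 1 of the E9.5 controls *Rps3a3* (783 CPM) exceeded *Rps3a1* (387 CPM). Adding all copies to their member, an alternative chosen after seeing these values, lowered the spread of *Rps3a1* over 17 libraries from an SD of 0.77 to 0.30 on the log2 CPM scale, and that of *Rps2* from 0.52 to 0.38. Pairs left uncounted because they have several alignments are not returned by adding copies.

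**Figure D2:**
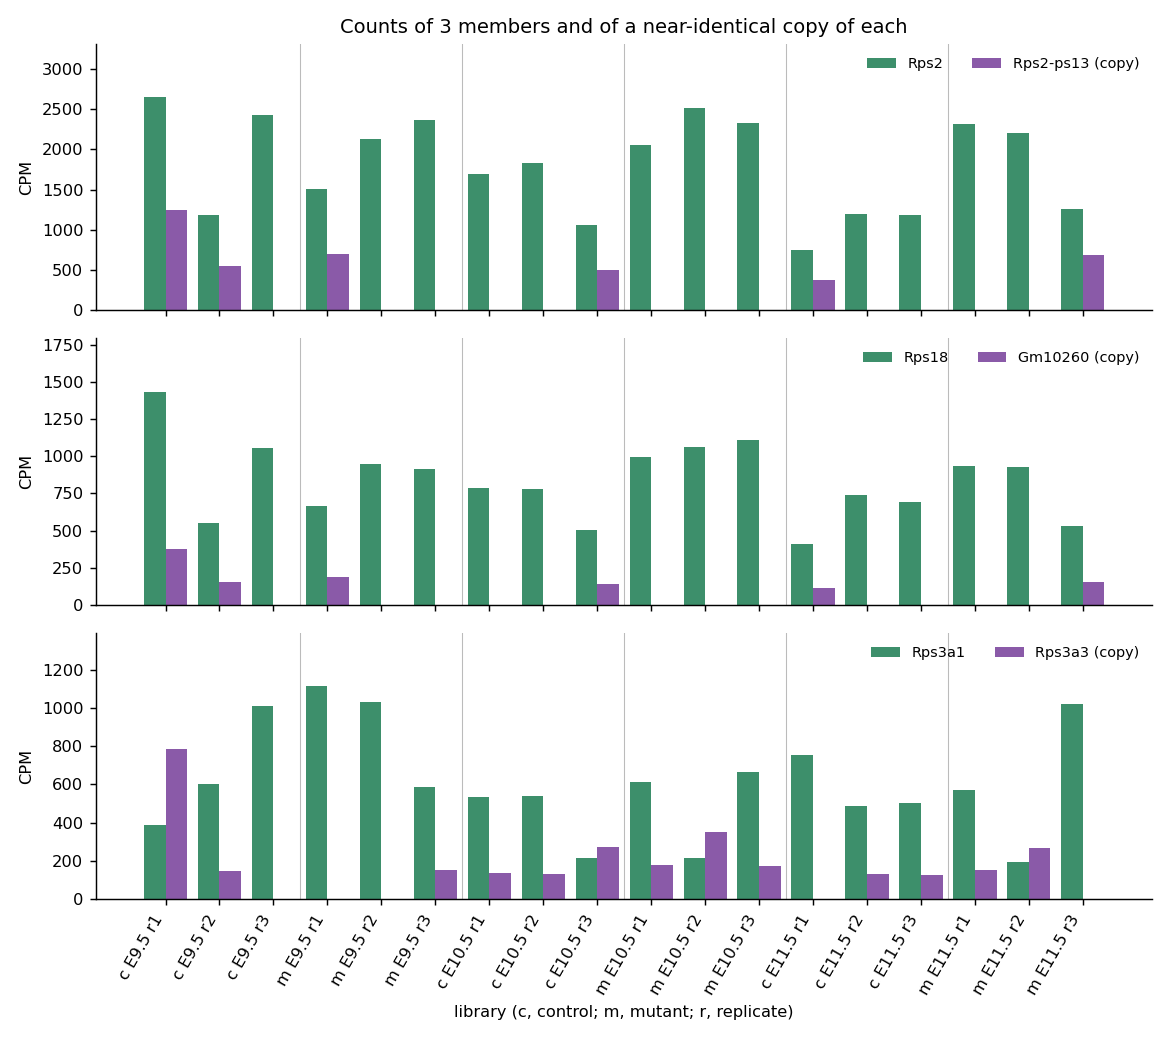
CPM (y axis) of *Rps2*, *Rps18* and *Rps3a1* (green) and of 1 near-identical copy of each (purple) in the 18 libraries (x axis; no error bars, 1 value per library). The copies of *Rps2* and *Rps18* are counted in the same 6 libraries, and *Rps3a1* is low where *Rps3a3* is high.

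Mutants and controls were compared at each stage with edgeR's quasi-likelihood test, fitted to all 18 libraries, with Benjamini-Hochberg adjustment over 20118 genes and a threshold of 0.05. At E10.5 every member was higher in the mutants by its fitted value, with a median log2 change of 0.33 and a range of 0.06 to 0.61, against a median of 0.02 over all genes. None of the 28 passed the threshold, where 7.3% of all genes were higher and 6.63% lower, and 0 had an unadjusted p under 0.05. DESeq2 and limma-voom also called 0. The mutant libraries did not overlap the controls for 24 of the 28, all higher in mutants, where 23% of all genes tested were separated in that direction. The share of counts held by the members was 2.49% ± 0.074 (SD, n = 3) in mutants and 1.93% ± 0.018 in controls. Replicate 1 of the E9.5 controls is in neither group, but its spread enters the fit, and it was set apart in part by the members' own values. Without it 18 of 28 members rose (adjusted p under 0.05), against 12.5% of 20749 genes, and the median log2 change was 0.32. With copies added as well, 22 of 28 rose, against 12.7% of genes.

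Values by library are given for 4 members, those with the smallest adjusted p for a fall from the E9.5 to the E10.5 controls. *Rps12*, a protein of the beak of the subunit, was 808, 741 and 883 CPM in E10.5 controls and 1104, 1174 and 1185 in mutants. The mutants lay above the controls with no overlap, and the log2 change was 0.51 ± 0.25 (SE, adjusted p = 0.20 by edgeR's quasi-likelihood test), or 0.50 ± 0.08 (adjusted p = 0.00028) without the E9.5 control that stood apart. *Rps25*, which some viral RNAs need to start translation, was 415, 419 and 429 CPM in controls and 524, 500 and 561 in mutants, again with no overlap. *Rps9*, a protein of the body of the subunit near the channel, was 991, 1040 and 1059 CPM against 1200, 1237 and 1296. *Rps6* was 349, 345 and 350 CPM against 406, 392 and 417, a log2 change of 0.22 ± 0.19 (adjusted p = 0.49), or 0.21 ± 0.08 (adjusted p = 0.0498) without that control. Among these 4 genes no mutant library fell to the level of a control. The same E10.5 controls entered the choice of the 4, which favours low control values. This separation and the p-values given for these genes at E10.5 are therefore a description only.

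*Rps18* had the largest fitted change at E10.5, 0.61 ± 0.30 (adjusted p = 0.20). Its CPM was 785, 783 and 505 in controls and 995, 1064 and 1109 in mutants, and the lowest control is the library in which *Gm10260* was counted. With copies added the values were 799, 794 and 685 against 1012, 1081 and 1125, and the log2 change was 0.50 ± 0.23 (adjusted p = 0.17). *Rps4x*, the X-linked member, had the smallest, 0.06 ± 0.17 (adjusted p = 0.86). Its controls, at 1096, 1076 and 1130 CPM, overlapped the mutants at 1105, 1085 and 1247, and the sign of its change turned when the length trend was removed (-0.05) or when mutant replicate 3 was left out (-0.01). *Rpsa*, which also serves as a laminin receptor, was named after its values were seen: among the 28 it had the smallest adjusted p at E10.5 without that control (0.00015), with 1877, 1871 and 1951 CPM in controls and 2384, 2685 and 2734 in mutants.

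**Figure D3:**
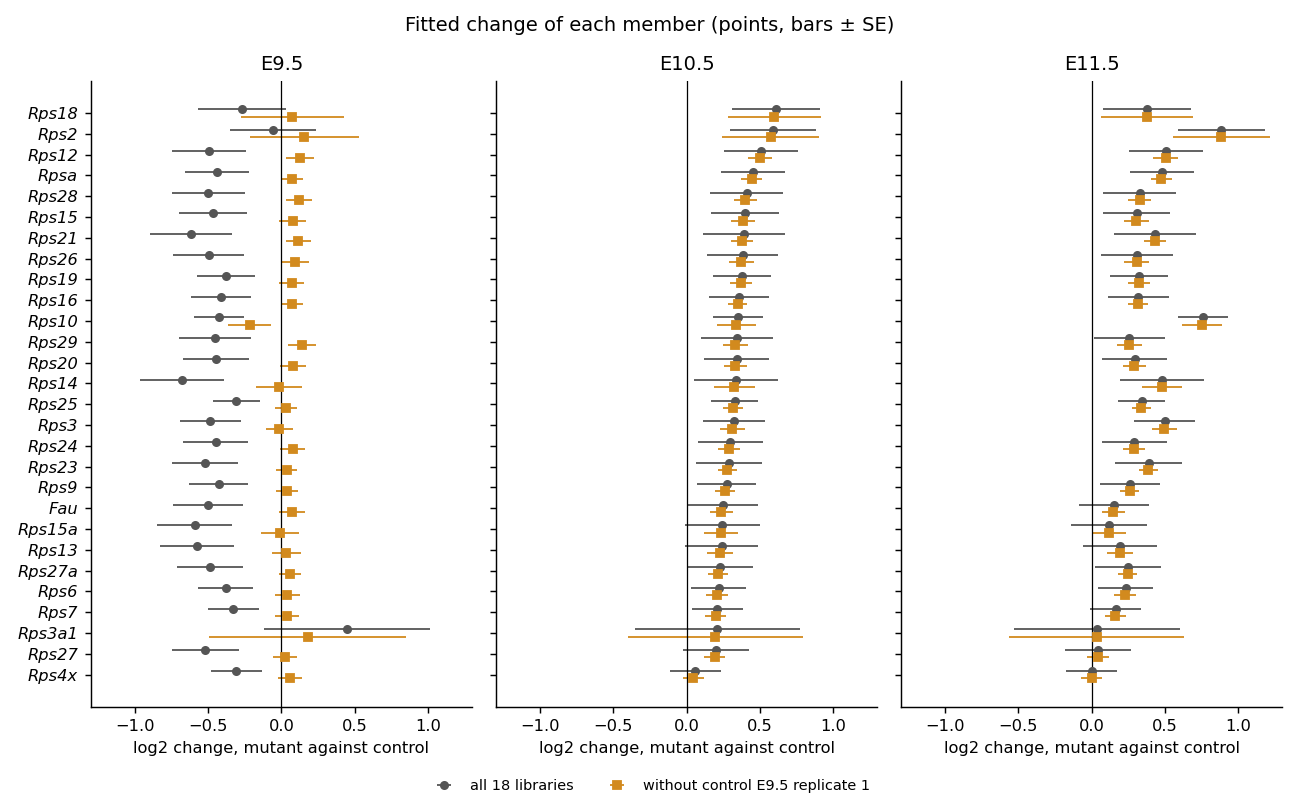
Fitted log2 change, mutant against control (x axis), of each of the 28 members (y axis) at the 3 stages (panels), with all 18 libraries (grey circles) and without replicate 1 of the E9.5 controls (orange squares); bars are SE. Leaving that library out moves the E9.5 values from a median of -0.45 to 0.07 and narrows the bars at the other stages for most members.

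At E11.5 the members were again higher in mutants by their fitted values, in 28 of 28, with a median log2 change of 0.31 and a range of 0.00 to 0.88. Of the 28, 2 rose past the threshold, against 8.02% of all genes, and 0 fell, against 9.52%. Separation of mutants above controls was seen for 21 of 28 members and for 19.8% of all genes. The members held 2.27% ± 0.10 of counts in mutants and 1.80% ± 0.12 in controls. Without replicate 1 of the E9.5 controls 19 of 28 rose, against 13.8% of genes, and with copies added as well 21 of 28 rose, against 13.9%.

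The 2 members past the threshold were *Rps10* and *Rps2*. *Rps10*, at the head of the subunit near the channel, was 13.7, 13.7 and 9.74 CPM in E11.5 controls and 18.7, 23.4 and 20.7 in mutants, with no overlap and a log2 change of 0.76 ± 0.17 (adjusted p = 0.0054). It held this call in each alternative run, on the incomplete count described above. *Rps2* was 756, 1197 and 1181 CPM in controls and 2318, 2207 and 1256 in mutants. All 3 mutants exceeded all 3 controls, the nearest by 1256 to 1197, and the log2 change was 0.88 ± 0.30 (adjusted p = 0.048). The lowest library of each genotype is the one in which *Rps2-ps13* was counted, and with copies added the values were 1147, 1209 and 1191 against 2343, 2228 and 1974, with a log2 change of 0.88 ± 0.20 (adjusted p = 0.0047). As counted, the call of *Rps2* was lost without the E9.5 control that stood apart (adjusted p = 0.068) and without control replicate 1, 2 or 3 or mutant replicate 1 or 2 of E11.5 (0.073 to 0.17).

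Among the other members at E11.5, *Rps12* was 727, 755 and 707 CPM in controls and 1078, 932 and 1097 in mutants, with no overlap (log2 change 0.50 ± 0.25, adjusted p = 0.19). *Rps14* was 926, 1115 and 1067 CPM against 1287, 1884 and 1168, and 1 mutant lay well above the other 2. *Rps4x* again changed least, at 0.00 ± 0.17 (adjusted p = 1.00), with 1056, 1100 and 1057 CPM in controls inside the mutant range of 977 to 1187. *Rps27a* and *Fau* encode a ribosomal protein fused to ubiquitin and to a ubiquitin-like protein. *Rps27a* was 508, 573 and 531 CPM in controls and 642, 624 and 645 in mutants. *Fau* was 326, 341 and 330 CPM against 355, 361 and 390. Both were separated by genotype, with log2 changes of 0.25 ± 0.22 (adjusted p = 0.50) and 0.15 ± 0.24 (adjusted p = 0.71), and without the E9.5 control *Rps27a* rose (adjusted p = 0.0091) while *Fau* did not pass (0.17).

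At E9.5 the sign of the result rested on 1 library. With all 18 libraries 27 of 28 members were lower in mutants by their fitted values, with a median log2 change of -0.45. None passed the threshold, where 0.184% of all genes did in either direction, and DESeq2 and limma-voom called 0, while 10 members had an unadjusted p under 0.05, all lower, as did 5.81% of all genes in that direction. Without replicate 1 of the controls the median was 0.07, 24 of 28 were positive and again 0 passed, where 0.178% of all genes were higher. *Rps14* had the smallest fitted change, -0.68 ± 0.29 (adjusted p = 0.50), with 3588, 1162 and 1465 CPM in controls and 1471, 1222 and 1196 in mutants. Only the first control lay above the mutants, and without it the change was -0.02 ± 0.16. *Rps3a1* had the largest, 0.45 ± 0.56 (adjusted p = 0.75), with 387, 603 and 1012 CPM against 1113, 1029 and 589, and with copies added its sign turned to -0.11 ± 0.21. *Fau* was 1016, 395 and 432 CPM against 498, 415 and 391, and *Rps27a* was 1584, 652 and 683 against 766, 661 and 656. In both, all 3 mutants lay far below the first control and 1 of them above the other 2.

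**Figure D4:**
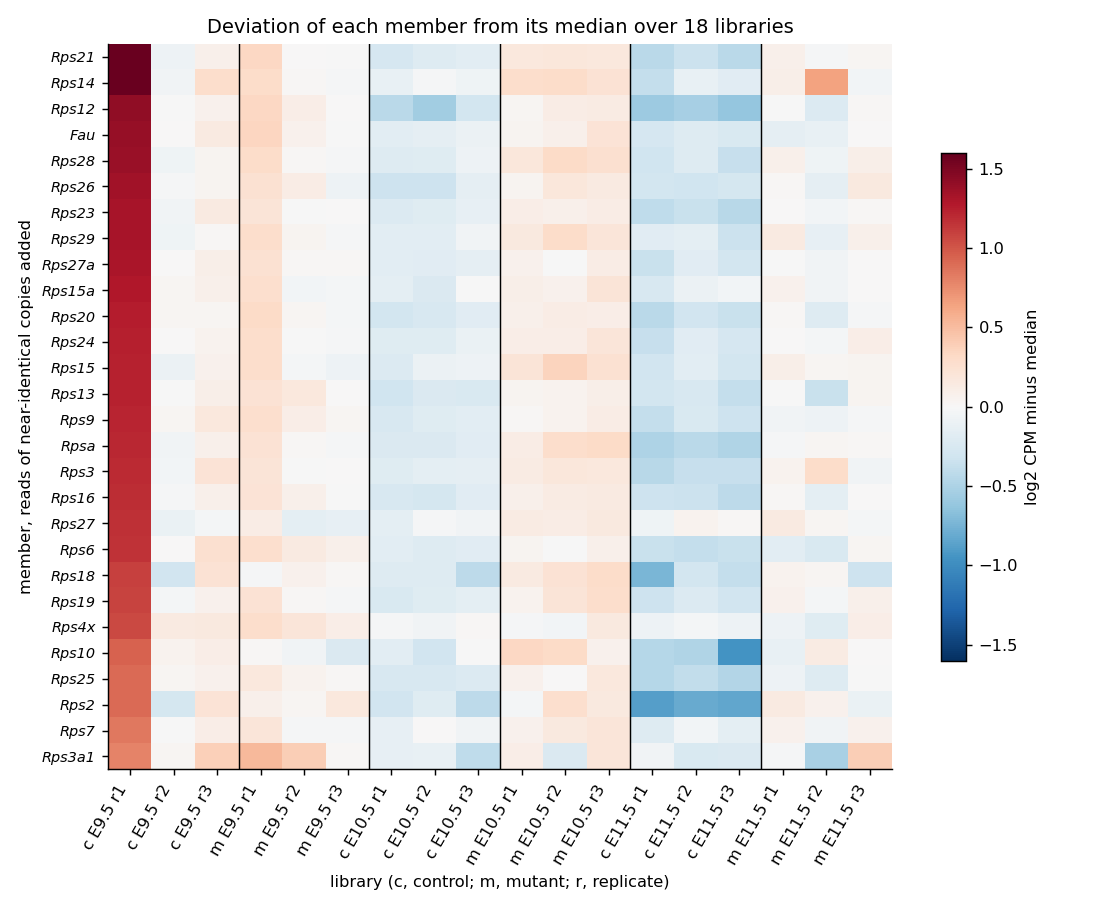
Log2 CPM of each member (rows), with the reads of its near-identical copies added, minus its median over the 18 libraries (colour, log2 units), in each library (columns; no error, 1 value per cell). Replicate 1 of the E9.5 controls is high for nearly every member, and at E10.5 and E11.5 most members are higher in the mutants than in the controls beside them.

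Control libraries of successive stages were compared to describe the members without the mutation. From E9.5 to E10.5, 23 of 28 members fell, against 12.5% of all genes, with a median log2 change of -0.73. Leaving out replicate 1 of the E9.5 controls left 10 of 28 falling, against 9.58% of genes, and a median of -0.23. The count was 5, 6 and 13 without replicate 1, 2 or 3 of the E10.5 controls. *Rps12*, *Rps25*, *Rps6* and *Rps9* had the smallest adjusted p with all libraries and still fell without that control, by 0.46 ± 0.09, 0.30 ± 0.07, 0.32 ± 0.08 and 0.32 ± 0.07 on the log2 scale. In these 4 the other 2 E9.5 controls stood above every E10.5 control, as for *Rps6*, at 398 and 468 CPM against 345 to 350. From E10.5 to E11.5 the median log2 change was -0.12, and 1 member, *Rps10*, fell (-0.68 ± 0.17, adjusted p = 0.018), against 2.89% of all genes. Its CPM went from 19.3, 17.5 and 22.7 to 13.7, 13.7 and 9.74, with no overlap, and its call was lost with copies added (adjusted p = 0.16) and without replicate 1 or 3 of the E10.5 controls or replicate 3 of the E11.5 controls (0.056, 0.096 and 0.12).

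The difference between the mutant effects of 2 stages was tested as an interaction. Between E10.5 and E9.5 it had a median of 0.78 over the members, and 0 of 28 passed, against 2.22% of all genes in either direction, while 24 had an unadjusted p under 0.05, against 11.6% of all genes higher, and DESeq2 called 1. The median was 0.26 without replicate 1 of the E9.5 controls, still with 0 past the threshold (1.33% of all genes higher), and 24 members passed (6.54% of all genes higher) when replicate 2 of those controls was left out instead. Between E11.5 and E10.5 the median was -0.04, and 0 of 28 passed and 0 had an unadjusted p under 0.05, against 0.0746% of all genes past the threshold.

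The members moved together across libraries. Pearson's r between a member's log2 CPM and the median of the other 27 had a median of 0.96 over 18 libraries and of 0.89 over 17, without the E9.5 control that stood apart. These values are a description, since the libraries share depth, stage and genotype and the members share each library. In 17 libraries *Rps3a1* (0.23), *Rps27* (0.38) and *Rps18* (0.39) followed the others least. With copies added *Rps3a1* reached 0.62 and *Rps18* 0.72, while *Rps27* stayed at 0.39.

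*Rps27* and its paralog *Rps27l* encode alternative forms of 1 protein of the subunit, and *Rps27l* is a known target of p53. *Rps27* was 356, 392 and 383 CPM in E10.5 controls and 434, 428 and 438 in mutants, and 379, 413 and 401 against 439, 406 and 385 at E11.5, where the genotypes overlapped. Its log2 changes were 0.20 ± 0.23 (adjusted p = 0.60) and 0.04 ± 0.23 (adjusted p = 0.92). *Rps27l*, which is not among the 28, was 104, 97.6 and 103 CPM in E10.5 controls and 173, 160 and 185 in mutants, and 86.1, 77.8 and 67.8 against 150, 133 and 151 at E11.5. Neither stage had an overlap. It rose by 0.77 ± 0.19 (adjusted p = 0.013) at E10.5 and by 0.90 ± 0.19 (adjusted p = 0.0035) at E11.5 on the log2 scale. At E9.5 the change was -0.30 ± 0.19 (adjusted p = 0.53), or 0.10 ± 0.10 without the control that stood apart. Leaving out control replicate 2 or mutant replicate 3 ended the call at E10.5 (adjusted p = 0.052 and 0.056). The difference between *Rps27* and *Rps27l* was not itself tested. *Rps4l*, the autosomal paralog of *Rps4x*, changed by 0.15 ± 0.18 (adjusted p = 0.63) and 0.17 ± 0.18 (adjusted p = 0.57) at these stages, with 100.7 to 105.7 CPM in E10.5 controls against 111 to 118 in mutants.

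**Figure D5:**
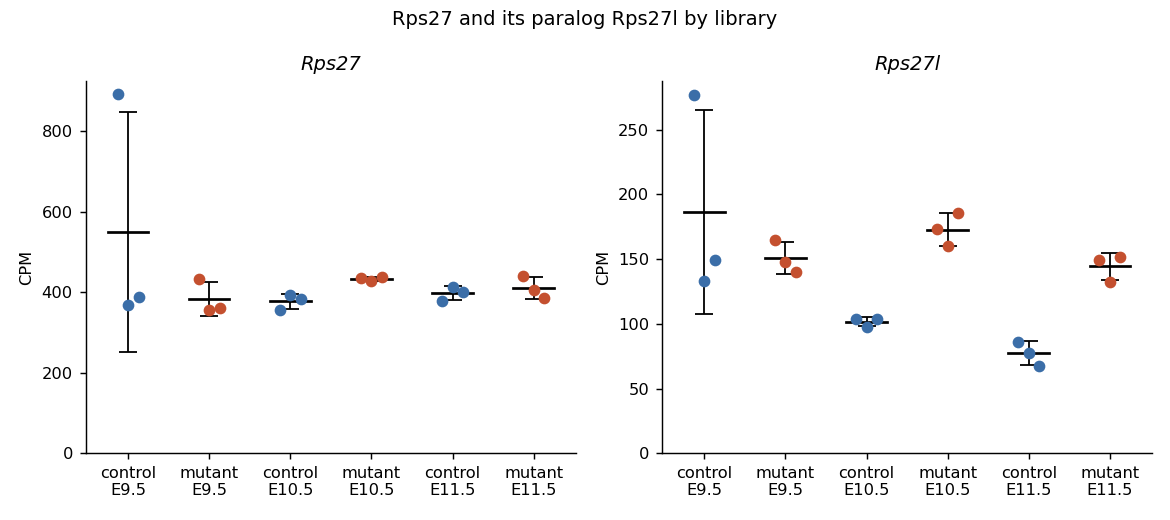
CPM (y axis) of *Rps27* and *Rps27l* in each library (points) by group (x axis); lines are means and bars are SD of 3 libraries. *Rps27l* is higher in every mutant than in every control at E10.5 and E11.5, while the genotypes overlap for *Rps27* at E11.5.

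Genes around the small subunit were counted in the same fits, with 7.3% (E10.5) and 8.02% (E11.5) of all genes higher, or 12.5% and 13.8% without replicate 1 of the E9.5 controls. Of 51 assembly factors, which build the subunit in the nucleolus, 7 were higher at E10.5 and 32 were at E11.5 past the threshold, and 0 fell at either stage, with median log2 changes of 0.19 and 0.43. *Rcl1*, which acts in processing of the ribosomal RNA precursor, went from 42.1, 39.3 and 39.6 CPM to 64.1, 65.0 and 77.1 at E11.5 (log2 change 0.77 ± 0.10, adjusted p = 5.2e-05). *Bysl*, needed for assembly of the small subunit, changed by 0.68 ± 0.11 (adjusted p = 0.00036). Both rose at E10.5 too, by 0.46 ± 0.10 (adjusted p = 0.0041) and 0.46 ± 0.11 (adjusted p = 0.0082). *Nop56*, of the box C/D particles that guide methylation of ribosomal RNA, rose by 0.46 ± 0.11 (adjusted p = 0.011) at E10.5, and *Wdr46* by 0.78 ± 0.11 (adjusted p = 0.00018) at E11.5. Of 47 large subunit genes 1 rose at each stage, *Rpl13a* at E10.5 (0.54 ± 0.17, adjusted p = 0.045) and *Rplp1* at E11.5 (0.71 ± 0.23, adjusted p = 0.039), and their medians were 0.36 and 0.33. Without that control the counts were 38 and 39 of 47. Those of the assembly factors were then 16 and 38 of 51. Of 27 initiation factors, 1 was called higher at E10.5, a share below that of all genes, and 6 were at E11.5. Without that control the counts were 8 and 15. The smallest adjusted p at E11.5 were those of *Eif3b* (0.55 ± 0.11), *Eif2s1* (0.44 ± 0.10) and *Eif4a1* (0.49 ± 0.11), from 0.0024 to 0.0062. Of 12 elongation factors and other genes with a pyrimidine start, *Pabpc1*, the poly(A)-binding protein, rose at both stages (0.35 ± 0.09 and 0.40 ± 0.09), and *Npm1* (0.75 ± 0.16) and *Eef1d* (0.67 ± 0.19) rose at E11.5. Of 12 regulators of mTORC1 and of messenger RNAs with a pyrimidine start, 2 rose at each stage and 0 fell, while 8 had negative values at E10.5 and 7 at E11.5, with medians of -0.05 and -0.02. The 2 were *Eif4ebp1* and *Larp1*. *Eif4ebp1*, an mTORC1 target that blocks cap-dependent initiation, rose at both stages, by 0.85 ± 0.18 (adjusted p = 0.0041) and 1.16 ± 0.18 (adjusted p = 0.00037). *Larp1*, which binds the pyrimidine run of ribosomal protein messenger RNAs, rose by 0.52 ± 0.10 (adjusted p = 0.0029) and 0.49 ± 0.10 (adjusted p = 0.0033). Nuclear oxidative phosphorylation genes had 0 of 72 rising at E10.5 and 3 of 72 at E11.5, both below the share of all genes, with medians of 0.16 and 0.18, and without that control the counts were 21 and 32.

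The values that follow were chosen after they were seen, from the fit without replicate 1 of the E9.5 controls. *Rps19*, whose human counterpart is mutated in Diamond-Blackfan anaemia, was 490, 509 and 524 CPM in E10.5 controls and 604, 669 and 709 in mutants. It was 462, 501 and 472 CPM against 612, 570 and 612 at E11.5. It rose by 0.37 ± 0.07 (adjusted p = 0.0012) and 0.32 ± 0.07 (adjusted p = 0.0032) on the log2 scale in edgeR's quasi-likelihood test, with no overlap at either stage. *Rps21* was 355, 371 and 381 CPM against 482, 487 and 481 at E10.5, and 317, 337 and 317 against 452, 423 and 437 at E11.5. Its changes were 0.38 ± 0.08 (adjusted p = 0.0012) and 0.43 ± 0.08 (adjusted p = 0.00036). *Rps23*, which carries a loop of the decoding centre, was 605, 619 and 647 CPM against 760, 752 and 774 at E10.5 and 535, 553 and 524 against 712, 687 and 708 at E11.5. In both genes the mutant libraries formed a narrow band above the controls. *Rps3*, at the entry of the messenger RNA channel and without a near-identical copy, was 1282, 1320 and 1327 CPM against 1607, 1666 and 1640 at E10.5. *Rps15*, *Rps16*, *Rps20*, *Rps24*, *Rps26*, *Rps28* and *Rps29* also rose at both stages, by 0.29 to 0.40 at E10.5 and by 0.26 to 0.33 at E11.5. *Rps7*, *Rps13* and *Rps15a*, all 3 with copies that hold more than 5% of their counts, passed at neither stage, with 0.20, 0.23 and 0.23 at E10.5 and 0.16, 0.19 and 0.11 at E11.5. With copies added in the same fit, *Rps13* was 0.32 ± 0.09 (adjusted p = 0.012) at E10.5 and *Rps15a* 0.25 ± 0.08 (adjusted p = 0.032), past the threshold, while *Rps7* was 0.19 ± 0.07 (adjusted p = 0.061). At E11.5 the 3 were 0.21, 0.13 and 0.16, with adjusted p from 0.078 to 0.25.

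Because the coding sequences of the members are short (171 to 888 bases) and the length trend moved with genotype, each library's trend over gene length was also removed. Gene length here was that of all counted exons, which ran from 630 to 6270 bases in the members. Several members were thus not short by this measure. A trend with the length of the transcripts present may remain and was not tested. The median log2 change of the members was then -0.26, 0.25 and 0.24 in order of stage, with 0, 0 and 2 of 28 rising, against 0.204%, 8.7% and 11.1% of all genes. With the trend removed and replicate 1 of the E9.5 controls left out, 14 of 28 rose at E10.5, against 13% of genes, and 16 of 28 at E11.5, against 16.1%. *Rps12* rose under that setting by 0.41 ± 0.08 (adjusted p = 0.0010) and 0.47 ± 0.08 (adjusted p = 0.00023). Its E10.5 value is a description only, because the E10.5 controls entered its choice. *Fau* had 0.11 ± 0.07 (adjusted p = 0.32) and -0.02 ± 0.07 (adjusted p = 0.88). *Rps27l* rose at both stages, by 0.62 ± 0.08 and 0.70 ± 0.08.

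The annotated start sites were read for the pyrimidine run, a feature the choice of members did not use. RefSeq promoters (GRCm38.p6) were at hand for 24 of the 28 members. A run of at least 7 letters C or T, on the sense strand within 15 bases before to 15 bases after the start, was present in 13 of the 24 (54.2%), in 55.9% of 34 large subunit genes and in 21.3% of all 27025 genes with an entry. A gene with several annotated starts was counted by its longest run. *Rps19* had runs of 4, 4 and 7 by start, and *Rps21* of 7 and 4. The runs of *Rps15a* and *Rps25* lie wholly before the annotated start, so outside the annotated transcript. A match is a description of these letters only. The 4 windows below show starts with and without a run, 5′ to 3′ on the sense strand, with the run in capitals. *Rps18* and *Rps10* have one, while *Rps2*, past the threshold at E11.5, and *Rps4x*, with the smallest change at E10.5 and E11.5, have none of at least 7. Their longest runs are 6 and 4, so the absence in *Rps2* rests on the minimum chosen. The windows lie at chr17:33955651-33955680 (minus strand), chr17:27635230-27635259 (minus), chr17:24720048-24720077 (plus) and chrX:102189377-102189406 (minus).
Rps18: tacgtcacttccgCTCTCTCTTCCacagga
Rps10: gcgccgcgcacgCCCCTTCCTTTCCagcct
Rps2: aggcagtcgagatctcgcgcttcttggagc
Rps4x: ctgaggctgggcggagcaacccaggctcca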

How the data were processed

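The deposited files hold counts of read pairs per gene, which the authors made with featureCounts 1.6.4, per the file headers, in reverse-stranded paired-end mode over exons of GENCODE M22 on mm10. The submitters' processing notes name cutadapt, STAR and limma, with settings not given in the sources used here. By default pairs with several alignments or overlapping several genes on a strand are not counted. The authors also deposited log2 FPKM per gene, used here as an alternative; no source states how those were scaled. Symbols came from GENCODE M21 (99.83% of identifiers).

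Counts were fitted in R 4.3.3 with edgeR 4.0.16 (filterByExpr, TMM scaling, robust quasi-likelihood with 6 group coefficients, 20118 genes). Errors of log2 changes are SE of the fit. CPM are counts scaled by the TMM-adjusted library size. The common biological coefficient of variation was 0.231, which at these depths exceeds counting error for the members. Copies were found with blastn 2.17.0 in annotated transcripts, and scripts were tested on simulated data. Length trends were removed through offsets from a smooth with span 0.3. Alternatives were other scalings and filters, DESeq2 1.42.0, limma 3.58.1, single stages, a replicate block, and leaving out libraries. Deviations of libraries with the same replicate number correlated at 0.33, 0.23 and 0.12 at E9.5, all over 0.1. Other pairs at that stage ran from -0.33 to 0.24. Control replicate 2 and mutant replicate 1 of E9.5, whose names both start with 65, had -0.22. Control replicate 1 and mutant replicate 3 of E11.5, whose names both start with 79, had 0.48. Pairs of a control and a mutant of E10.5 whose names start with 41 ran from -0.17 to 0.23. Same-replicate values were -0.01 to 0.23 at E10.5 and -0.28 to 0.21 at E11.5. These values do not settle whether replicate numbers or name numbers mark pairs, and the main fit used no pairs. Libraries that share a name number may not be independent, and no fit blocked on that number. The 3 libraries of a group may thus hold fewer independent units. Adding copies to members, and leaving out replicate 1 of the E9.5 controls together with copies or length removal, were chosen after seeing the data. The members and lists were chosen with earlier results of these data known. Genes given by library were members past the threshold (up to 4 per direction and comparison), the largest and smallest change at each stage, *Rps27a*, *Fau* and the paralogs *Rps27l* and *Rps4l*, plus up to 3 genes past the threshold from each related list, the latter without their value in every library. *Rpsa*, *Rps3*, *Rps19*, *Rps21* and *Rps23* were named after their values were seen.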

Additional observations from a re-analysis of the deposited data

Results flagged for a closer look

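*Rps27l*, the p53-responsive paralog of *Rps27*, is listed because its mutant effect differed between stages by a test of the difference itself. The effect at E10.5 exceeded that at E9.5 by 1.07 on the log2 scale (SE 0.27, adjusted p = 0.048 by edgeR's quasi-likelihood test over 20118 genes). Mutants were at 160 to 185 CPM against 97.6 to 104 in controls at E10.5, higher in 3 of 3, and at 140 to 165 against 133 to 277 at E9.5. Without replicate 1 of the E9.5 controls the difference was 0.66 ± 0.13 (adjusted p = 0.011), and with the length trend removed it was 0.61 ± 0.13 (adjusted p = 0.021). None of the 28 members passed the same test in these 3 fits.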

How the results depend on the processing

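The counts of members called moved with the libraries used. Over fits that each left out 1 library, the count ran from 0 to 18 at E10.5, from 1 to 19 at E11.5, from 5 to 27 for the E10.5 against the E9.5 controls, from 0 to 4 for the E11.5 against the E10.5 controls and from 0 to 24 for the interaction of E10.5 and E9.5, and it was 0 throughout for E9.5 and for the interaction of E11.5 and E10.5. The share of all genes called in the same direction ran from 3.6% to 12.5%, from 4.82% to 13.8%, from 7.27% to 16.1%, from 0.697% to 7.9% and from 0.183% to 6.54% in the first 5 of these. The median log2 change lay between -0.67 and 0.071 for E9.5 mutants, between 0.32 and 0.36 for those of E10.5, between 0.28 and 0.34 for those of E11.5, from -0.95 to -0.23 for the first pair of control stages and from -0.15 to -0.09 for the second. With each stage fitted alone 23 members passed at E10.5 (17% of all genes) and 16 did at E11.5 (11.3%). Without both replicate 1 of the E9.5 controls and replicate 3 of the E10.5 mutants, 16 and 19 members rose at these stages (9.06% and 13.7% of all genes), 10 and 4 fell between control stages (9.54% and 7.65%), and the medians at E9.5 and between the first control stages were 0.071 and -0.23. With copies added and that control left out, 22 and 21 rose (12.7% and 13.9%), 11 and 5 fell (9.75% and 7.98%), and these medians were 0.068 and -0.23. With the length trend removed and that control left out, 14 and 16 rose (13% and 16.1%), 13 and 5 fell (12.4% and 11.2%), and the medians were 0.0605, 0.24, 0.24 and -0.25 at E9.5, E10.5, E11.5 and between the first control stages. Removing the length trend alone gave medians of 0.25 and 0.24 at E10.5 and E11.5. At E11.5, 1 member was called with no filter (3.83% of all genes), with limma-voom (7.84%) and on the log2 FPKM (11.8%). Between E10.5 and E9.5 controls no filter left 11 (5.85%), between E11.5 and E10.5 controls added copies left 0 (2.93%), and DESeq2 called 1 in the first interaction (3.36%). Keeping at E10.5 only the libraries whose names start with 41, with all libraries of the other stages still in the fit, called 0 (2.09%), with a median of 0.34.

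With the replicate block the median at E9.5 was -0.42, with 0 called. The count at E11.5 was 1 (7.4% of all genes, 10.4% with length removal), *Rps2* losing its call (adjusted p = 0.069), also with the length trend removed, where the median was 0.24 at E10.5 and at E11.5. It changed no other call among the members given by library or of *Rps27l* between genotypes, and 19 of 28 members then fell between the first control stages (11.4%). Signs turned at E9.5 for 23 of 28 members without replicate 1 of the controls, for 24 with copies added as well, and for 1, *Rps2*, with length removal alone. At E11.5 they turned for *Fau*, *Rps27*, *Rps3a1* and *Rps4x* with length removal. Among the genes followed over every alternative, *Rps3a1* at E9.5 was -0.11 with copies added, and none of these turns passed the threshold. *Rps4x* at E10.5 was -0.0504 with the length trend removed, -0.0513 with the block as well, -0.0168 without both libraries and -0.0565 with length removal and that control left out, and between -0.0080 and 0.0955 with 1 library left out. *Rps4x* at E11.5 was -0.0041 with limma-voom, -0.0022 with the block, -0.0014 without both libraries, -0.0581 with length removal, -0.0587 with the block too and -0.0585 with that control left out too, and between -0.071 and 0.0629 with 1 library left out. *Rps27l* at E9.5 was 0.0146 with length removal, 0.0182 with the block too, 0.0992 without both libraries, 0.0987 with copies added and that control left out and 0.0948 with length removal and that control left out, and between -0.494 and 0.099 with 1 library left out. The cause of these turns was not tested. The spread between 3 libraries a group, not depth, limits the precision.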
